A study of Mus musculus with 6 samples.

Results

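Neuropilins, plexins and class 3 semaphorins form a ligand and receptor system that was first described in the guidance of axons and blood vessels. The 10 genes described here are the neuropilins Nrp1 and Nrp2, the plexins Plxna1, Plxna2, Plxna3 and Plxnd1, and the ligands Sema3a, Sema3c, Sema3e and Sema3f, taken by symbol from a table of 55291 genes. They were chosen by family name from genes whose Calr KO and control values in these same libraries had already been seen. The differences between the groups are therefore given for these 10 genes as a description, without a test.

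The RNA came from LLC (Lewis lung carcinoma), a line of mouse lung tumour cells, grown as an untreated culture. The Calr KO cells received plasmids for Cas9 and a guide RNA against calreticulin, and the control cells, labelled wild type, received Cas9 with a control guide. After 10 days in culture each group was divided over 3 wells and collected 48 hours after seeding, which gave 3 Calr KO and 3 control libraries of 1 batch label. The wells come from 1 population per group, so every error and p-value here rests on the spread between wells and not between independent knockouts. Each SE of a log2 difference draws in part on the spread of other genes of like level, and not on that gene's wells alone. No clone is named, and Calr mRNA was still present in the Calr KO libraries, at 4467, 4216 and 4453 normalised counts against 10711, 10202 and 11047 in control (log2 difference -1.28, SE 0.04). Library totals were 14040692 to 14099985 normalised counts. In bulk RNA, fewer cells that make a transcript and less of it per cell cannot be told apart.

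Class 3 semaphorins are secreted glycoproteins. Neuropilins bind them on the cell surface but have short cytoplasmic tails, and the signal is carried by plexins, whose cytoplasmic part acts on small GTPases and, through them, on the cytoskeleton and on integrin adhesion. Neuropilins also bind growth factors of the VEGF family. Sema3a is the classical ligand of neuropilin-1 and Sema3f of neuropilin-2, Sema3c can use either, and Sema3e binds plexin-D1 directly. All of these proteins pass through the endoplasmic reticulum, where calreticulin acts as a chaperone for glycoproteins.

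The 250 bases before the RefSeq transcription start of Nrp2 and Nrp1 (GRCm38.p6) are shown because these paralogues had the largest differences between the groups among the members with enough counts to enter the fit, in opposite directions. The window of Nrp2 is chr1:62703067-62703316 and that of Nrp1 is chr8:128358823-128359072, both on the plus strand. Capitals mark GC boxes (GGGCGG on either strand, including matches that overlap each other).
Nrp2: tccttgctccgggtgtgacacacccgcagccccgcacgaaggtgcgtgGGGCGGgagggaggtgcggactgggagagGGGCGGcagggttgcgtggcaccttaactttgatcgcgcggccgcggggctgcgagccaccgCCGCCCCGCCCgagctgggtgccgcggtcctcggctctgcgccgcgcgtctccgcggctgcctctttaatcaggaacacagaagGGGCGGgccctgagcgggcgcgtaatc
Nrp1: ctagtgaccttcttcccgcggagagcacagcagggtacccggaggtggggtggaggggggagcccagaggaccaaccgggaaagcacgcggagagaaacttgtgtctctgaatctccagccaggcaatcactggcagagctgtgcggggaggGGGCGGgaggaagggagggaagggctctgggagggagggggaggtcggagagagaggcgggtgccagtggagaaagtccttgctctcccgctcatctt
The window of Nrp2 held 5 GC boxes and 72.4% G and C, and that of Nrp1 held 1 GC box and 64.4%, beside a median of 52.4% over all RefSeq windows of this length. The RefSeq table used here held such a window for 8 of the 10 genes, and those of Plxna1 and Sema3f were not used here. A GC box was found in 7 of the 8, all but Sema3a, and in 32.7% of 32851 windows. The RefSeq start used for Sema3a lies 271.4 kb inside the gene as GENCODE M21 draws it, so its window is not that of the gene's outermost start. The ER stress element, read as CCAAT and CCACG separated by 9 bases on either strand, was in 0 of the 8 and in 0.113% of all windows. CCAAT alone, with which that element begins, was in 0 of the 8 and 33.8% of all. The hypoxia element core ACGTG was in 1 of the 8, Sema3c, and in 16.6% of all. TATAAA was in 0 of the 8 and in 12.4% of all. Each motif was searched on both strands, and these are matches of letters and not bound sites.

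Several of the genes are neighbours. On chromosome 5 of GRCm38, in GENCODE M21, Sema3d (12383385 to 12588948), Sema3a (13125414 to 13602565), Sema3e (14025276 to 14256689) and Sema3c (17574281 to 17730268) follow each other on the plus strand, with gaps of 0.54, 0.42 and 3.32 Mb. The class 3 semaphorin Sema3b lies 72.3 kb from Sema3f (chromosome 9, 107681500 to 107710475, minus strand). Nrp2 (62703285 to 62818695) and Plxna2 (194618218 to 194816869) lie on the plus strand of chromosome 1, Nrp1 (128358604 to 128503363) on the plus strand of chromosome 8 and Plxna3 (74329066 to 74344689) on the plus strand of chromosome X. Plxna1 (89316314 to 89362620) and Plxnd1 (115954811 to 115995005) are on the minus strand of chromosome 6. All 10 are protein-coding genes.

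Nrp2 was the member with the highest level per kb of exon and the one called in the fit over the whole table. It had 6134, 5856 and 5934 normalised counts in the Calr KO libraries, against 6994, 7067 and 7244 in the control libraries. All 3 Calr KO libraries were below all 3 controls. The means were 5975 ± 143 in Calr KO and 7102 ± 129 in control (SD, n = 3 each), a log2 difference of -0.25 (SE 0.03), which is a change of -15.9%. In limma on log2(value + 1) with Benjamini-Hochberg adjustment over 13199 genes, 37 genes (0.28%) were called at an adjusted p of 0.05, 11 of them lower in Calr KO (0.0833% of those tested). Nrp2 was 1 of the 11, and 1 of the 9 members that passed the filter of a mean of at least 10 normalised counts was called. Because the gene was chosen with this contrast known, its call adds no support. The call was lost when replicate 2 or 3 of either group was left out. It was also lost with the replicate number as a block and without the variance trend. The log2 difference of Nrp2 lay between -0.27 and -0.24 in 16 alternative settings. The filters, the variance prior and the balanced block cannot change that value, so only the other settings could move it.

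Nrp1 stood on the other side at a far lower level. It had 109, 114 and 132 normalised counts in Calr KO, against 108, 95.02 and 89.8 in control. The groups did not overlap, but by a narrow margin, since the lowest Calr KO library (109) was next to the highest control (108). The log2 difference was 0.27 (SE 0.14), with means of 118 ± 11.8 in Calr KO and 97.6 ± 9.36 in control (SD, n = 3 each). Per kb of exon, which allows levels of different genes to be compared, Nrp2 exceeded Nrp1 by 46.5, 42.3 and 37.3 times in the Calr KO libraries and by 53.5, 61.5 and 66.7 times in the controls. The ratio of the paralogues was lower in every Calr KO library than in every control. Its size depends on the length used, and per kb of the longest coding transcript it was 30.1, 27.4 and 24.1 in Calr KO and 34.7, 39.8 and 43.2 in control. Nrp2 still made up 97.7% ± 0.256 of the summed neuropilin level in Calr KO and 98.4% ± 0.181 in control (SD, n = 3 each).

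**Figure D1:**
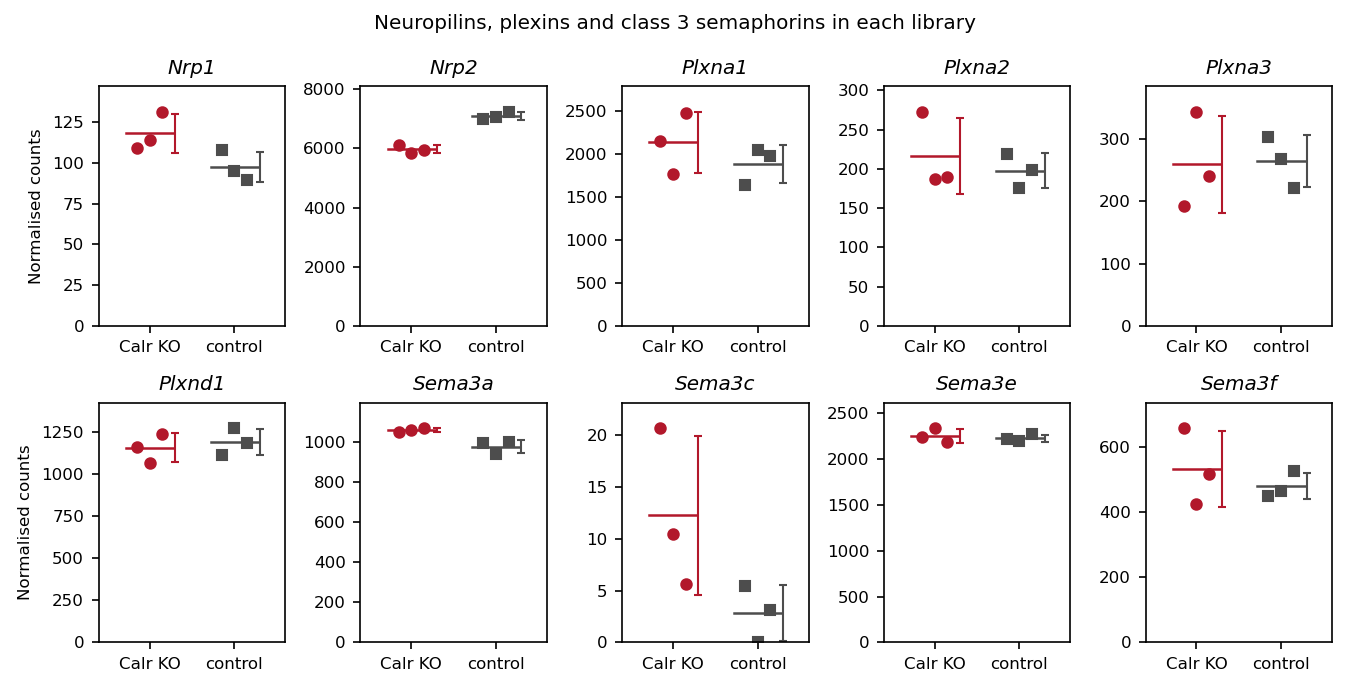
Normalised counts of the 10 genes (vertical axes, from 0) in each of 3 Calr KO libraries (red circles) and 3 control libraries (grey squares), with the mean as a line and the SD as a bar. The groups are apart for Nrp2, which is lower in Calr KO, and for Nrp1, Sema3a and Sema3c, which are higher, and they overlap in the other 6 panels. Over all tested genes, which do not include Sema3c, the groups are apart in 14.8%.

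Among the plexins the groups overlapped for each of the 4 genes. Plxna1, a co-receptor that neuropilin-bound semaphorins signal through, had 2152, 1763 and 2476 normalised counts in Calr KO, against 1633, 2044 and 1973 in control. Its highest value was in Calr KO replicate 3 and its lowest in control replicate 1, and the log2 difference was 0.17 (SE 0.12). Plxna2, a relative that also binds class 6 semaphorins directly, had 273, 187 and 189 in Calr KO, against 219, 175 and 199 in control. Calr KO replicate 1 alone lay above the controls, and the log2 difference of 0.11 (SE 0.16) turned to -0.06 without that library.

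Plxna3, which pairs chiefly with neuropilin-2 in neurons, had 192, 343 and 241 normalised counts in Calr KO, against 303, 268 and 221 in control. The Calr KO libraries held both the lowest and the highest of the 6 values, and the log2 difference was -0.06 (SE 0.20). Over the 16 settings it lay between -0.28 and 0.13, and its sign turned without Calr KO replicate 1 or control replicate 1. Plxnd1, the receptor of Sema3e, had 1161, 1069 and 1240 in Calr KO, against 1115, 1274 and 1188 in control, with a log2 difference of -0.04 (SE 0.07). Its sign turned without Calr KO replicate 2 or control replicate 2, to at most 0.01.

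Among the ligands, Sema3a, a repellent of growing axons, was slightly higher in Calr KO. It had 1051, 1061 and 1071 normalised counts in Calr KO, against 995, 939 and 1001 in control. All 3 Calr KO libraries were above all 3 controls, at means of 1061 ± 10.0 in Calr KO and 979 ± 34.1 in control (SD, n = 3 each). The log2 difference was 0.12 (SE 0.05). Sema3e had the highest level of the ligands per kb of exon and differed least, with 2239, 2339 and 2192 in Calr KO, against 2224, 2197 and 2274 in control. Its groups overlapped and the log2 difference was 0.02 (SE 0.04).

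Sema3f, the ligand with the highest affinity for neuropilin-2, had 658, 425 and 518 normalised counts in Calr KO, against 452, 467 and 526 in control. The Calr KO libraries again held the lowest and the highest of the 6 values. The log2 difference of 0.13 (SE 0.14) became -0.03 without Calr KO replicate 1. Sema3c was barely detected and did not pass the filter on low values. It had 20.7, 10.5 and 5.63 normalised counts in Calr KO, against 5.40, 0 and 3.14 in control. Every Calr KO library was above every control, but Calr KO replicate 3 and control replicate 1 nearly met. In every library 1 read was worth an estimated 0.945 to 1.04 normalised counts, so these values stand for few reads each.

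Of the 9 members in the fit, 3 had groups that did not overlap, Nrp1 and Sema3a higher and Nrp2 lower. Over all tested genes the groups did not overlap in 14.8%, higher in 7.57% and lower in 7.28%. The median log2 difference of the 9 was 0.11, with 6 above 0 and 3 below, against 0.00036 over all tested genes. The median of the 9 was 0.02 when Calr KO replicate 1 was left out, 0.06 when Calr KO replicate 3 was, 0.07 when control replicate 1 was and 0.03 when control replicate 2 was.

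Per kb of exon, the order of the 10 genes was the same in Calr KO and in control. Nrp2 came first with 505 ± 12.1 normalised counts per kb in Calr KO and 600 ± 10.9 in control (SD, n = 3 each), followed by Sema3e with 243 ± 8.11 in Calr KO and 240 ± 4.21 in control. Plxna1 (235 ± 39.4 per kb in Calr KO, 208 ± 24.3 in control) and Plxnd1 (158 ± 11.7 in Calr KO, 163 ± 10.9 in control) were the leading plexins. Sema3f stood at 103 ± 22.6 per kb in Calr KO and 92.6 ± 7.56 in control, and Sema3a at 76.5 ± 0.723 in Calr KO and 70.6 ± 2.46 in control. Plxna3, Plxna2 and Nrp1 had means of 32.9, 12.6 and 12.1 per kb in Calr KO and 33.5, 11.5 and 9.97 in control, and Sema3c had 1.72 in Calr KO and 0.399 in control.

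Neighbours in this order were not separated by their ranges for Plxna2 and Nrp1 in either group, nor for Sema3e and Plxna1 in Calr KO. The order depends in part on the length used. With the longest coding transcript in place of all exons, 5 of the 10 genes kept their place in Calr KO and 6 in control. Nrp1 then came before Plxna2 in both groups, and Sema3a came before Sema3f in both, with ranges apart in control. Sema3a also stood before Plxnd1 in Calr KO and behind it in control, with ranges that overlapped. The authors' transcript models are not given in the sources used here.

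**Figure D2:**
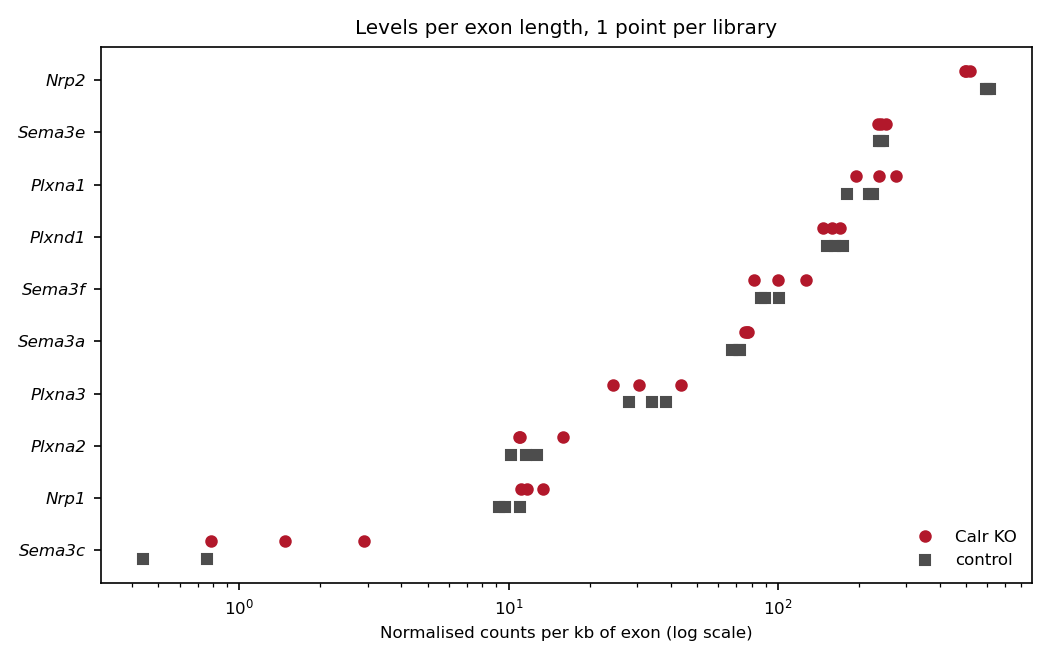
Normalised counts per kb of exon on a log scale (horizontal axis) for the 10 genes, ordered by their control mean, with 1 point per library (red circles, Calr KO; grey squares, control). Nrp2 lies highest, at 495 to 612 over the 6 libraries, and Sema3c lowest, where control replicate 2 is at 0 and is not drawn.

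Summed by role and per kb, the 4 ligands had 447, 412 and 414 normalised counts in Calr KO, against 399, 394 and 419 in control, and the groups overlapped. The 4 plexins had 437, 396 and 485 in Calr KO, against 384, 444 and 420 in control, which also overlapped. The neuropilins had 529, 506 and 515 in Calr KO, against 602, 607 and 621 in control. Only the neuropilin sum had groups apart, and it is nearly all Nrp2. Per kb of the longest coding transcript the mean sums were 667 in Calr KO and 633 in control for the ligands, and 922 in Calr KO and 1084 in control for the neuropilins. Sema3e made up 57.4% ± 3.61 of the ligand sum in Calr KO and 59.5% ± 0.895 in control, and Plxna1 53.3% ± 3.71 of the plexin sum in Calr KO and 49.9% ± 2.58 in control (SD, n = 3 each). Plxnd1 made up 36.4%, 37.0% and 35.0% of that sum in Calr KO and 39.7%, 39.2% and 38.7% in control.

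The genes fell into steady and variable ones between wells of 1 group. The residual SD on the log2 scale was set beside that of tested genes with a mean within 1.5 times. For Plxna1 it was 0.21, 3.38 times the median of 0.06 of its 1649 genes of like level, and 98.4% of them had a smaller one. For Plxna3 it was 0.34, 2.55 times the median, and for Sema3f 0.24, 2.29 times. Plxna2 had 1.65 times and Plxnd1 1.33 times the median. Nrp2, Nrp1, Sema3e and Sema3a were below it, at 0.72, 0.71, 0.64 and 0.46 times. The SEs of the log2 differences are pulled towards genes of like level. They are thus smaller than the wells alone give for the members above the median, and larger for those below it.

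Calr KO replicate 2 held the lowest Calr KO value of Nrp2, Plxna1, Plxna2, Plxnd1 and Sema3f and the highest of Plxna3 and Sema3e. In GENCODE M21 transcripts, 8.57% of the 31-base words of Plxna1, read on either strand, also occurred in transcripts of another gene. Its exons overlap those of the antisense gene Gm26811 over 970 bases, 10.7% of its exon length. Without a stated strand setting, reads of the pair cannot be told apart there, and Gm26811 averaged 20.1 ± 3.48 in Calr KO and 21.5 ± 7.10 in control (SD, n = 3 each). For the other 9 genes at most 2.76% of the words were shared, and Plxna3 shared 0.

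**Figure D3:**
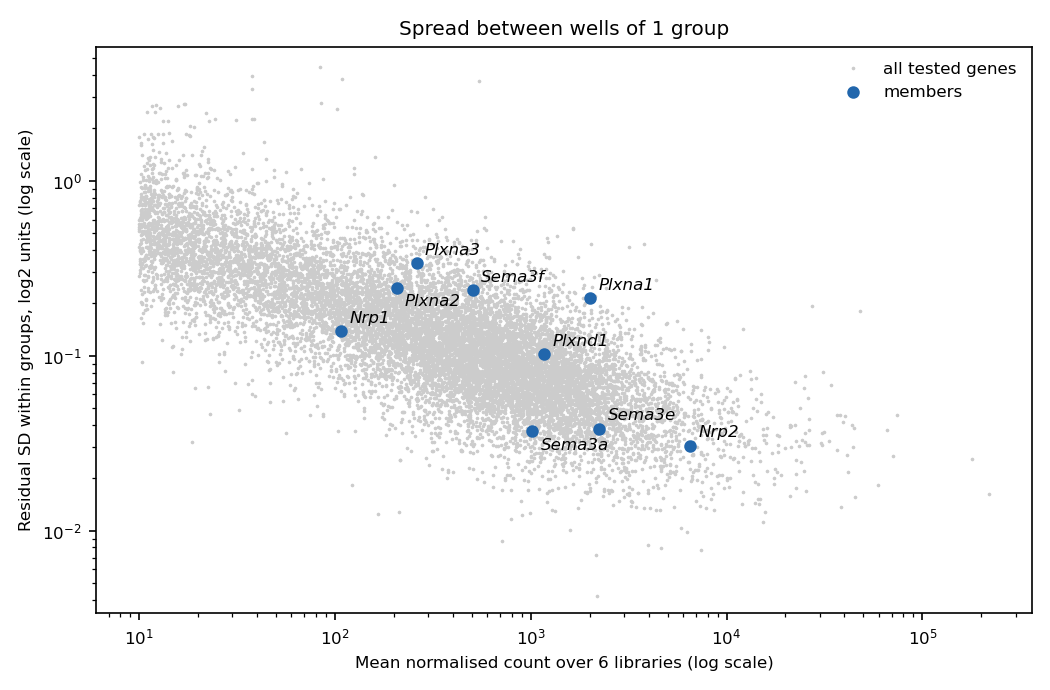
Residual SD of log2(value + 1) within groups (vertical axis, log scale) against the mean normalised count over 6 libraries (horizontal axis, log scale) for all 13199 tested genes (grey) and the 9 members among them (blue). Plxna1, Plxna3 and Sema3f lie in the upper part of the cloud at their level, and Sema3a, Sema3e, Nrp1 and Nrp2 in the lower part.

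The rest of the pathway was read in 7 lists, of ligands, receptors, partners, proteases and intracellular mediators, with 84 genes in the table and 70 tested. In limma, with p-values adjusted by Benjamini-Hochberg over 13199 genes, 0 of the 70 were called higher and 0 lower in Calr KO. Of all tested genes 0.28% were called, so few calls among 70 genes do not show that these genes were unchanged. At an unadjusted p under 0.05 there were 11 of 70 (15.7%), 5 higher and 6 lower, where 8.88% of all tested genes were. The 7 lists were written with earlier results of these data known, so shares of the 70 are given as a description only. Without control replicate 1, 1 of the 70 was called, Plxnc1, whose value in that library lay among those of Calr KO. The groups did not overlap for 15 of the 70 (21.4%), 7 higher and 8 lower, beside 14.8% of all tested genes. The median log2 difference of the 70 was -0.03, with 31 above 0 and 39 below.

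Of the other class 3 semaphorins 3 of 3 were tested. Sema3d, the chromosome 5 neighbour of Sema3a, had 8.04, 11.4 and 22.5 normalised counts in Calr KO, against 27.9, 24.98 and 23.3 in control. All Calr KO libraries were below all controls, with a log2 difference of -0.93 (SE 0.38, limma adjusted p = 0.529). Sema3b and Sema3g differed by -0.14 (SE 0.18) and 0.01 (SE 0.31).

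Of 5 other plexins 4 were tested. Plxnc1, the receptor of Sema7a, had 9.95, 5.69 and 8.63 normalised counts in Calr KO, against 6.63, 55.2 and 52.0 in control. Control replicate 1 lay among the Calr KO values and apart from the other controls. The log2 difference was -1.67 (SE 0.70, limma adjusted p = 0.536), and without control replicate 1 it was -2.62 (adjusted p = 0.0391). The latter fit leaves out the control that lay among the Calr KO values, so its p-value adds no support. Plxnb2, a receptor of class 4 semaphorins, averaged 4437 ± 214 in Calr KO and 4609 ± 202 in control (SD, n = 3 each; log2 difference -0.05, SE 0.05, limma adjusted p = 0.791). Plxnb1 differed by 0.37 (SE 0.66).

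Of 13 membrane semaphorins 10 were tested, with a median log2 difference of -0.13, 3 above 0 and 7 below. Sema4c, a ligand of Plxnb2, had 2269, 2333 and 2220 normalised counts in Calr KO, against 2704, 2371 and 2592 in control. The groups did not overlap, with a log2 difference of -0.17 (SE 0.05, limma adjusted p = 0.405). Sema5a and Sema6d differed by 0.22 (SE 0.14) and -0.30 (SE 0.20), with adjusted p = 0.715 and adjusted p = 0.737.

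Of 8 VEGF ligands and receptors, 7 were tested. Vegfa, a ligand of neuropilins and of VEGF receptor kinases, had 2362, 2078 and 2238 normalised counts in Calr KO, against 2732, 2554 and 2505 in control. All Calr KO libraries lay below all controls, with a log2 difference of -0.22 (SE 0.06, limma adjusted p = 0.27). Flt1, a VEGF-A receptor, had 80.2, 58.6 and 63.8 in Calr KO, against 50.8, 39.5 and 47.7 in control, at 0.54 (SE 0.20, adjusted p = 0.483). Vegfc, a ligand of neuropilin-2, differed by 0.43 (SE 0.30, adjusted p = 0.742).

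Among 7 tested co-receptors, Erbb2, a kinase that associates with B plexins, had 355, 300 and 358 normalised counts in Calr KO, against 240, 253 and 255 in control. The groups were well apart, at a log2 difference of 0.43 (SE 0.10, limma adjusted p = 0.207). Ptk7, a receptor of the pseudokinase kind, differed by 0.17 (SE 0.06, adjusted p = 0.498) and Itgb1, the beta-1 integrin chain, by -0.08 (SE 0.03, adjusted p = 0.463). Among 6 tested proteases that can cleave semaphorins or their receptors, the differences lay between -0.15 and 0.19, and those with the smallest p were Adam17 at 0.07, Pcsk7 at 0.19 and Adam10 at -0.05.

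Of 34 intracellular mediators 33 were tested, 16 above 0 and 17 below with a median of -0.02. Rap1a, a GTPase on which plexins act, had 1555, 1556 and 1433 normalised counts in Calr KO, against 1389, 1313 and 1359 in control. Its groups did not overlap, at a log2 difference of 0.16 (SE 0.05, limma adjusted p = 0.435). Mical2, an actin-oxidising enzyme of a family that binds plexins, had 382, 413 and 451 in Calr KO, against 487, 458 and 548 in control, at -0.26 (SE 0.10, adjusted p = 0.482). Gipc1, which binds the tail of neuropilin-1, differed by 0.16 (SE 0.07, adjusted p = 0.55).

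**Figure D4:**
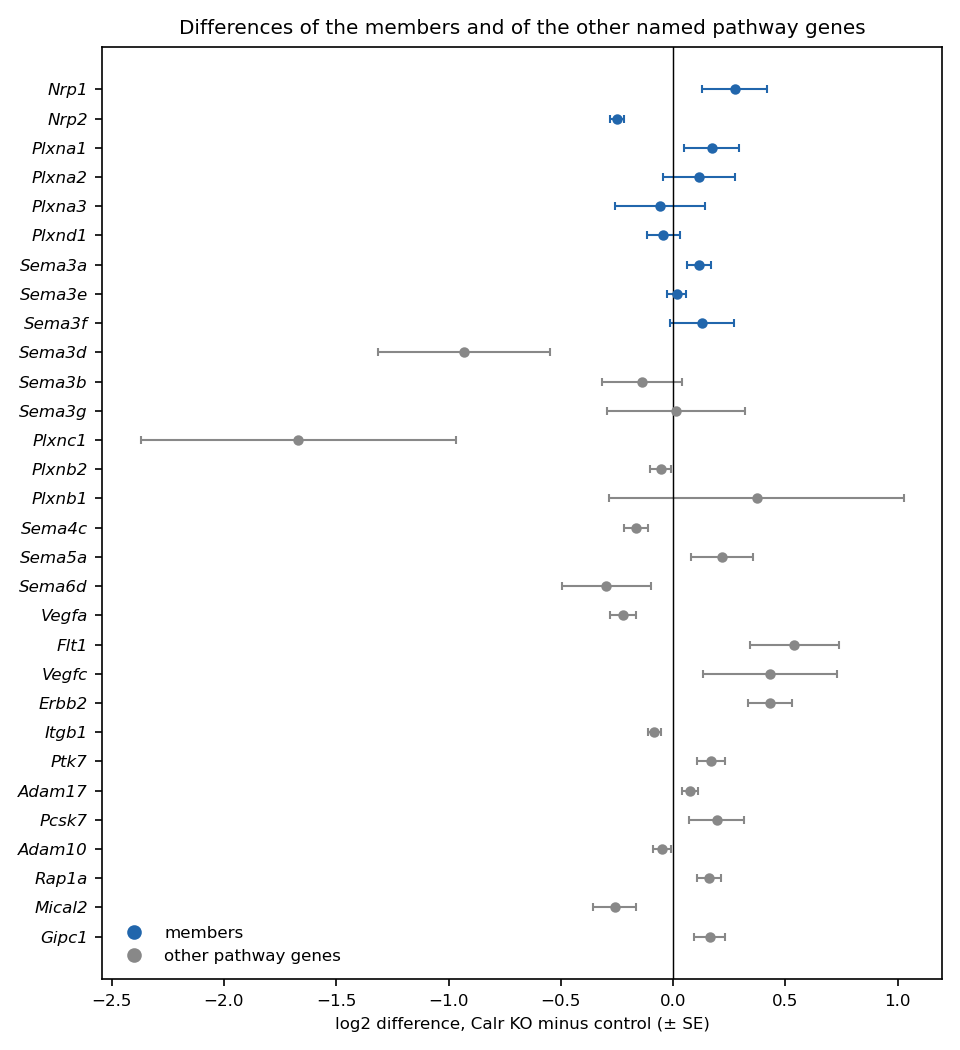
Log2 difference, Calr KO minus control, with its SE (horizontal axis) for the 9 members in the fit (blue) and 21 other named pathway genes (grey). Nrp2 lies at -0.25 with a short bar, and the widest bars belong to the low genes Plxnc1 and Plxnb1.

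Genes with the profile most like that of Nrp2 over the 6 libraries, by the smallest root-mean-square difference of centred log2 values among 10912 genes with a mean of at least 50, were Ctps2, a CTP synthase, with 0.02, Chic1 with 0.02 and Nfkbie, an inhibitor of NF-kB, with 0.02. Their log2 differences between the groups, which the choice by profile fixes to lie near that of Nrp2, were -0.24, -0.23 and -0.28. For Sema3a they were Gm16580, Pfdn1, a prefoldin subunit, and Tmed7, a cargo receptor of early secretory traffic, each with 0.01 and with log2 differences of 0.13, 0.13 and 0.11.

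The labelled cell type was set against marker lists. Of 7 epithelial markers Krt8 and Krt18 were present and Epcam, Krt19, Cldn7 and Esrp1 were at 0 in all libraries, and of 7 lung epithelial markers Sftpc, Sftpa1, Nkx2-1 and Scgb1a1 were at 0. The epithelial sum was 4961 to 5240 normalised counts in Calr KO and 4632 to 4932 in control. Krt8 makes up most of it, at means of 4770 in Calr KO and 4472 in control, and its own groups overlapped. Of 6 mesenchymal genes 5 had a mean of at least 10, with a sum of 41793 to 44219 normalised counts in Calr KO and 45619 to 47688 in control. Vim carries that difference, at a mean of 36379 in Calr KO and 39343 in control, while Twist1 was higher in every Calr KO library (means of 854 in Calr KO and 781 in control) and Fn1, Zeb1 and Snai2 overlapped. The 7 endothelial markers, genes of a cell type known for neuropilins and Plxnd1, summed to 23.3 to 48.8 normalised counts in Calr KO and 24.7 to 34.4 in control, with Emcn at 0. Cdh5 was higher in every Calr KO library, at 6.80, 5.91 and 37.4, against 3.59, 2.98 and 4.17 in control. The groups were not apart for the other endothelial markers. The 6 neuronal markers summed to 108 to 141 in Calr KO and 62.8 to 75.6 in control, with Rbfox3 at 0. Gap43 (means of 56.6 in Calr KO and 21.6 in control) and Snap25 (59.9 in Calr KO and 38.5 in control) carry that sum. The sum of 7 macrophage markers was 195 to 254 in Calr KO and 187 to 232 in control, with Adgre1 and C1qa at 0. Cd14 (means of 130 in Calr KO and 126 in control) and Cd68 (79.0 in Calr KO and 68.0 in control) make up most of it. Each of the other macrophage markers had a mean below 10. The sum of 7 fibroblast markers was 22997 to 24617 in Calr KO and 22279 to 23189 in control. Col3a1 makes up most of the fibroblast sum, at means of 21461 in Calr KO and 20527 in control. Dcn was higher in every Calr KO library (means of 31.9 in Calr KO and 15.5 in control). Col1a2 was lower in every one (42.7 in Calr KO and 53.0 in control), and the other fibroblast markers overlapped. The part of the epithelial, mesenchymal and neuronal sums, which differed between the groups, in the results was not tested. The mitochondrial share of counts was 2.88% to 2.97% in Calr KO and 2.78% to 2.80% in control, and its part was not tested either.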

How the data were processed

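Per gene and library, the deposited values (a signal, not whole counts) are DESeq2-normalised counts made by the authors, as the labels name them. The submitters' processing notes list the mm10 build and, without roles, DESeq2 1.34.0, STAR 2.6.1d and Salmon 0.14.1. The annotation release and strand setting are not given in the sources used here. A SMARTer kit was used on total RNA, per the labels' protocols. Estimated reads were 13571210 to 14918661 per library. Among higher values 3.44% to 4.31% were whole reads within 0.02, so no count model was run.

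Values of genes with a mean of at least 10 were taken as log2(value + 1). Groups were compared in limma (version 3.58.1, R 4.3.3) by a two-sided moderated test whose prior variance depends on the mean level, with Benjamini-Hochberg adjustment over 13199 genes. A fold on this scale understates the change of low genes. Lengths and positions are from GENCODE M21 (GRCm38, the assembly of mm10). All 10 symbols matched. Promoter windows are from RefSeq (GRCm38.p6).

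The members and all gene lists were chosen with earlier results of these data known. Named were all members, in each pathway list any called gene and otherwise the 3 with the smallest p, and the 3 genes most like each of the 2 members with the largest moderated statistic. Outside this rule, Gm26811 was named for its overlap with Plxna1 and Calr as the targeted gene. Other pseudocounts, filters, scalings, variance priors, the replicate block and leaving out each library were tried. Ratios, shares and sums per kb with another length, and that length and column sums for the level order, were chosen after seeing the data. Vim, Twist1, Gap43, Snap25, Cdh5, Col3a1, Col1a2 and Dcn were named after their values were seen.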

Additional observations from a re-analysis of the deposited data

How the results depend on the processing

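Over 16 settings no member other than Nrp2 was called. Nrp2 was called in 10 settings and not in 6. Without the variance trend 2 genes of the whole table and 0 members were called. Leaving out 1 library gave 20 to 34 genes of the whole table in place of 37 (20 and 21 without Calr KO replicate 1 or 3, 22 without control replicate 2 or 3), 0 to 1 members, 0 to 1 other pathway genes, and a median of the members of 0.0213 to 0.121. Scalings moved the median of all tested genes by at most 0.01. Signs turned without 1 library for Plxna2, Plxna3, Plxnd1, Sema3e and Sema3f, for Sema3g (-0.1564 to 0.2159 over these fits) and for Plxnb1 (-0.1588 to 1.0173). With the longest coding transcript 5 members kept their place in the order in Calr KO and 6 in control, and with equal column sums 10 did in each; the cause of the other changes was not tested.

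The replicate numbers did not pair the samples: correlations of same-numbered deviations were -0.056, -0.011 and 0.001, and no library correlated best with its own number. With the replicate block 26 genes were called, 0 of them members and 0 other pathway genes. Sema3c, with few reads, had a log2 difference of 1.99 when the filter was a mean of at least 1. Counting error was not separated from the spread between wells.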
